A study of Homo sapiens with 4 samples.

Results

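The iron genes described here are 10 genes chosen by name, TFRC, STEAP3, SLC11A2, FTH1, FTL, NCOA4, IREB2, ACO1, SLC40A1 and SLC25A37, which bring iron into the cell, store it, sense it or move it across membranes. All 10 were found in the deposited table of 58735 genes through GENCODE release 44, and all 10 were among the 16668 genes tested. RNA-seq was carried out on total RNA of cells labelled NB4, a line established from human acute promyelocytic leukemia, with 2 libraries from untreated cells (control) and 2 from cells treated with GNE-987. GNE-987 is a degrader of BET proteins, which bind acetylated chromatin. The study's figure legends give a dose of 25 nM and a treatment of 24 h. The sources used here do not say whether the libraries of a group came from separate cultures, so P values measure the spread between these libraries only.

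The libraries held between 12362423 and 19326085 reads on genes, and the GNE-987 libraries were the shallower pair. Mitochondrially encoded genes took 3.77% and 4.57% of these reads in control and 15.7% and 15.3% after GNE-987. The markers of the labelled cell type were nearly absent from the control libraries, which goes against the label, so the cells are called by it only as the samples are named. MPO, the defining granule enzyme of promyelocytes, was at 0.0246 and 0 FPKM in control, and ELANE and CTSG were listed at 0 in both, whereas the erythroid factor GATA1 was at 124 and 122 FPKM. The 7 granule markers summed to 3.35 and 3.79 FPKM in control and 26.2 and 23.8 FPKM after GNE-987. The 7 erythroid markers summed to 316 and 317 FPKM in control and 392 and 327 FPKM after GNE-987, although within them GATA1 was at 15.1 and 12.5 FPKM after treatment. The 4 megakaryocyte markers (1.39 and 1.41 against 6.33 and 7.44 FPKM), the 4 T cell markers (18.1 and 17.01 against 21.2 and 21.8 FPKM, mostly CD3D) and the 4 B cell markers (0.936 and 0.9505 against 25.2 and 23.96 FPKM) were also summed. The part of these shifts in the results below was not tested. In bulk RNA, fewer cells of a type and less RNA per cell cannot be told apart.

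Iron reaches most cells bound to transferrin, which the transferrin receptor carries into endosomes, where a reductase and a divalent metal transporter pass the iron to the cytosol. Iron that is not used is kept inside ferritin shells, and ferroportin is the exporter. Iron regulatory proteins sense the supply and bind stem-loops, the iron-responsive elements, in the untranslated ends of several of these messenger RNAs. Bound at the 5′ end they block translation, and bound at the 3′ end of the transferrin receptor messenger they protect it from decay. Red cell precursors are known for very high transferrin receptor and mitochondrial iron import, which feed heme synthesis.

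These stem-loops are shown because they are the feature that ties storage, uptake and export genes to one control. The pattern searched, on the transcript strand only, was C, then NNNNN, then the loop CAGTGN, then 5 bases that pair with the NNNNN, with G-U pairs allowed. It was found in the 5′ untranslated part of 19 of 19224 canonical transcripts (0.0988%) and in the 3′ untranslated part of 121 of 19229 (0.629%) in GENCODE release 44. The 3 5′ matches among the 10 genes are in FTH1, FTL and SLC40A1, and the single gene with 3′ matches is TFRC. With 1 unpaired base allowed in the second arm, a form found in 191 of the 3′ parts (0.993%) and 23 of the 5′ parts (0.12%), SLC11A2 and IREB2 also had a 3′ match each. Capitals mark the 6-base loop, and each printed stretch also holds the 5 bases on either side of the pattern.

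FTH1 5′ element (chr11:61967575-61967601, minus strand): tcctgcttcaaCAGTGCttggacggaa
FTL 5′ element (chr19:48965336-48965362, plus strand): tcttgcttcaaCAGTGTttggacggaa
SLC40A1 5′ element (chr2:189580662-189580688, minus strand): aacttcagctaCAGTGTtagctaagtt
TFRC 3′ element nearest the stop codon (chr3:196050980-196051006, minus strand): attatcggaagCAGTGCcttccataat
TFRC next 3′ element (chr3:196050576-196050602, minus strand): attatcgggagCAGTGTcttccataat
TFRC next 3′ element (chr3:196050511-196050537, minus strand): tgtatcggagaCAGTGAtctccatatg
TFRC last 3′ element (chr3:196050464-196050490, minus strand): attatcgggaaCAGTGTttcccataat
SLC11A2 3′ element, 1 unpaired base (chr12:50988269-50988296, minus strand): gccatcagagcCAGTGTgtttctatggt

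The coordinates are those of GRCh38, the build named in the submitters' processing notes as hg38. The 4 printed TFRC stretches begin 936 to 1452 bases past the stop codon. The printed ferritin stretches begin 34 bases (FTH1) and 28 bases (FTL) from the start of the messenger. A stem-loop that departs from the pattern would be missed, so the order along TFRC is that of these matches only. A match of letters is a description and does not show that a protein binds there.

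Levels are given in FPKM, fragments per kilobase of gene and per unit of sequencing depth as scaled by the authors, so they can be compared between genes. The test was limma on log2(FPKM + 0.1), and a gene was called higher or lower at an unadjusted P under 0.05 with a fold change over 2 or under 0.5. Of the 10 iron genes, 7 were called, 3 higher and 4 lower with GNE-987. Among all tested genes 58.5% were called, 33.6% higher and 24.9% lower, so a count of 7 in 10 is near the background and says little of the genes as a group. Their median log2 fold change was -0.47, against 0.17 over all tested genes and -0.29 over the 10996 tested protein-coding genes, the kind to which all 10 belong. Of the protein-coding genes 23.99% were called higher and 31.7% lower. What follows is therefore each gene's own level and change. All 10 had a mean of at least 0.5 FPKM in each group, so none entered the test through 1 group alone.

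**Figure D1:**
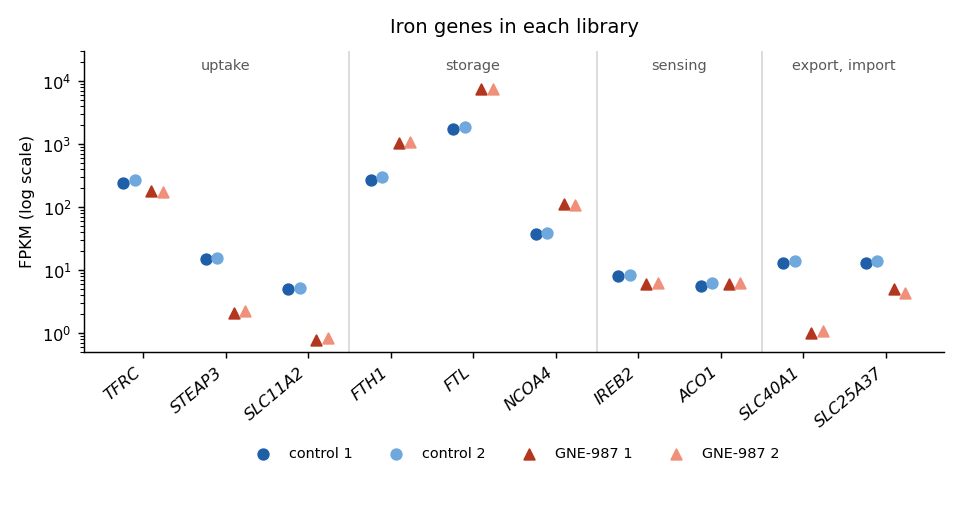
FPKM of the 10 iron genes (log scale) in each of the 2 control libraries (circles) and 2 GNE-987 libraries (triangles), ordered by role. The ferritin genes FTH1 and FTL and NCOA4 lie higher in both GNE-987 libraries, STEAP3, SLC11A2, SLC40A1 and SLC25A37 lie lower in both, and ACO1 overlaps between the groups.

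In control cells FTL was the highest of the 10 genes, at 1821 ± 129 FPKM (SD, n = 2). FTH1 at 286 ± 27.4 FPKM and TFRC at 257 ± 19.1 FPKM followed, and these neighbours in the order overlapped between libraries. NCOA4 was next at 38.0 FPKM, then STEAP3 at 15.3 FPKM. SLC25A37 at 13.6 and SLC40A1 at 13.5 FPKM overlapped, and IREB2, ACO1 and SLC11A2 closed the order at 8.29, 5.93 and 5.13 FPKM without overlap. With GNE-987 the upper 4 places were the same genes without overlap, SLC11A2 stayed last, and STEAP3 and SLC40A1 moved from places 5 and 7 to places 8 and 9. These places hold only at the gene lengths behind the deposited FPKM values. The steps of the TFRC values fit a length of 15774 bases, 3.15 times its canonical messenger of 5012 bases. At the canonical lengths TFRC would stand at 808 FPKM in control cells and FTH1 at 483 FPKM, which turns their order. Other places turn as well. In control cells SLC11A2 would stand at 12.6 FPKM, above ACO1 at 6.02 FPKM, and SLC25A37 at 23.8 FPKM, above STEAP3 at 16.3 FPKM. After GNE-987 SLC40A1 would be last at 1.38 FPKM, below SLC11A2 at 2.00 FPKM.

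TFRC, the transferrin receptor, lies on chromosome 3 (196012511 to 196082153, minus strand). Its level was 243 and 270 FPKM in control and 185 and 177 FPKM after GNE-987. The groups did not overlap, and the GNE-987 mean was 181 ± 4.99 FPKM (SD, n = 2). On the log2(FPKM + 0.1) scale TFRC fell by 0.50 (SE 0.0678, adjusted P = 0.00402 from limma), which did not reach a fold change of 2, so it was not called. The receptor was nevertheless a large part of the sequenced RNA. In the control libraries TFRC took 88294 and 94232 reads, which is 0.457% (95% Wilson interval 0.454 to 0.460) and 0.493% (0.489 to 0.496) of the reads on genes. In the GNE-987 libraries it took 24336 and 24708 reads, 0.197% (0.194 to 0.199) and 0.192% (0.190 to 0.194). Intervals of this kind cover counting error only. On this scale of read shares the log2 fold change was -1.29 with limma-voom, past both thresholds.

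STEAP3, the reductase that converts endosomal iron to the form that can be transported, lies on chromosome 2 (119223831 to 119265652, plus strand). It was at 14.9 and 15.7 FPKM in control and at 2.12 and 2.24 FPKM after GNE-987, a mean 7.004 times lower after treatment. The log2 fold change was -2.75 (SE 0.0747, adjusted P = 0.000154 from limma), and the GNE-987 values rest on 81 and 90 reads. The antisense gene STEAP3-AS1 shares 500 bases with its exons and was between 0.0352 and 0.149 FPKM in the 4 libraries. SLC11A2, the divalent metal transporter that moves iron out of the endosome, lies on chromosome 12 (50979401 to 51028566, minus strand). It was at 4.97 and 5.30 FPKM in control and at 0.778 and 0.849 FPKM after GNE-987, on 66 and 76 reads. The log2 fold change of SLC11A2 was -2.52 (SE 0.117, adjusted P = 0.000316). The genes of the endosomal steps thus stood 6.31 times (SLC11A2) and 7.004 times (STEAP3) below control, while the receptor stood 1.42 times below it.

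Ferritin was higher with GNE-987 in the deposited values. FTL encodes the light subunit, which helps to form the iron core, and lies on chromosome 19 (48965309 to 48966879, plus strand). It was at 1729 and 1912 FPKM in control and at 7483 and 7432 FPKM after GNE-987. Its log2 fold change was 2.04 (SE 0.0690, adjusted P = 0.000199 from limma). FTH1 encodes the heavy subunit, which oxidises iron as it enters the shell, and lies on chromosome 11 (61959718 to 61967634, minus strand). It was at 267 and 306 FPKM in control and at 1044 and 1079 FPKM after GNE-987. FTH1 had a log2 fold change of 1.89 (SE 0.0810, adjusted P = 0.000274). Both treated libraries lay above both control libraries for each subunit, and the differences were larger than the spread between replicates. In fits without 1 GNE-987 library the spread came from the control libraries of all genes. limma drew each gene's spread toward a trend with its level, and the lone treated library was assumed to vary alike. FTL was then not called, with log2 fold changes of 2.03 without replicate 1 and 2.04 without replicate 2 (SE 0.483 in each). Its control values, 1729 and 1912 FPKM, lie too close together to give that SE alone.

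Reads of the ferritin genes are uncertain in 2 ways. The 25 FTH1 pseudogenes of the table summed to 18.2 and 19.0 FPKM in control and 85.3 and 85.6 FPKM after GNE-987, which is 6.81% and 6.22% of FTH1 before and 8.17% and 7.93% after treatment. With them added the log2 fold change of FTH1 was 1.91, and that of FTL, with its 16 pseudogenes, was 2.04. BEST1, on the opposite strand, shares 1267 bases with the exons of FTH1 (63.2% of their length), and the counting is not stated to use strand. BEST1 itself was at 0.0827 and 0.0506 FPKM in control and at 8.92 and 9.39 FPKM after GNE-987.

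NCOA4 is the receptor that delivers ferritin to lysosomes for iron release. It lies on chromosome 10 (46005088 to 46030623, minus strand) and was at 37.0 and 38.9 FPKM in control and at 114 and 109 FPKM after GNE-987. NCOA4 had a log2 fold change of 1.55 (SE 0.0508, adjusted P = 0.000191 from limma). The ratio of NCOA4 to FTH1 within a library was 0.139 and 0.127 in control and 0.109 and 0.101 with GNE-987.

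The messengers of both iron regulatory proteins changed by less than a factor of 2 in the deposited values, as did TFRC. IREB2, which encodes the regulatory protein that is degraded when iron is plentiful, lies on chromosome 15 (78437431 to 78501453, plus strand). It was at 8.17 and 8.41 FPKM in control and at 5.97 and 6.19 FPKM after GNE-987. It fell by 0.44 on the log2 scale (SE 0.0647, adjusted P = 0.0051 from limma), short of a fold change of 2. ACO1 encodes the other regulatory protein, which works as an aconitase when it holds an iron-sulfur cluster, and lies on chromosome 9 (32384603 to 32454769, plus strand). It was at 5.67 and 6.19 FPKM in control and at 5.97 and 6.37 FPKM after GNE-987, so the groups overlapped. Its log2 fold change of 0.057 (SE 0.0848, adjusted P = 0.569) was within the replicate spread. The ratio of IREB2 to ACO1 was 1.44 and 1.36 in control and 1.00 and 0.971 with GNE-987.

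SLC40A1, which encodes the iron exporter ferroportin, was the most reduced of the 10 genes. It lies on chromosome 2 (189560590 to 189583758, minus strand) and was at 12.9 and 14.1 FPKM in control and at 1.02 and 1.10 FPKM after GNE-987, a mean 12.7 times lower after treatment. The control values rest on 1282 and 1350 reads and the GNE-987 values on 37 and 42 reads. The log2 fold change was -3.55 (SE 0.0970, adjusted P = 0.000157 from limma), and 0.873% of the tested genes had a lower one. SLC25A37, the mitochondrial iron importer mitoferrin 1 of red cell precursors, was at 13.3 and 14.0 FPKM in control and at 5.05 and 4.41 FPKM after GNE-987. Its log2 fold change was -1.51 (SE 0.0937, adjusted P = 0.000552). Its paralog SLC25A28, which is used in most other tissues, was at 8.07 and 8.01 FPKM in control and at 11.9 and 9.62 FPKM after GNE-987, and was not called.

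The scaling between libraries decides several of these calls. The reads on genes were 0.839 and 0.865 times the number of reads that the deposited FPKM values imply as their scale in control and 1.48 and 1.46 times that number after GNE-987. Scaling to the reads on genes shifts a log2 fold change by -0.785. The median over all tested genes was 0.17 as deposited, -0.57 with scaling to reads on genes, -0.24 with quantile normalization and -1.59 with scaling to GAPDH. GAPDH itself was at 398 and 432 FPKM in control and at 1501 and 1499 FPKM after GNE-987. The calls of STEAP3, SLC11A2, SLC40A1 and SLC25A37 as lower held under each of these scalings. FTH1 and FTL were called higher with scaling to reads on genes (log2 fold changes of 1.11 and 1.25), but were not called with scaling to GAPDH (0.039 and 0.18) or with quantile normalization (-0.068 and -0.20). NCOA4 was not called with scaling to reads on genes (0.77), to GAPDH (-0.30) or with quantile normalization (0.89). TFRC was called lower in each of the 3, at -1.29, -2.36 and -1.99. IREB2 was called lower with scaling to reads on genes (-1.22) and to GAPDH (-2.27), and ACO1 was called lower with scaling to GAPDH (-1.77). The 7 calls as deposited, 3 higher and 4 lower, became 2 higher and 6 lower with reads on genes, 0 higher and 7 lower with GAPDH, and 0 higher and 5 lower with quantile normalization.

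When the median over the tested genes was taken off, FTH1 stood at 1.72 and FTL at 1.86 as deposited, at 1.68 and 1.82 with reads on genes, at 1.63 and 1.78 with GAPDH, and at 0.17 and 0.047 with quantile normalization. TFRC stood at -0.68, -0.71, -0.76 and -1.75 in the same order.

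**Figure D2:**
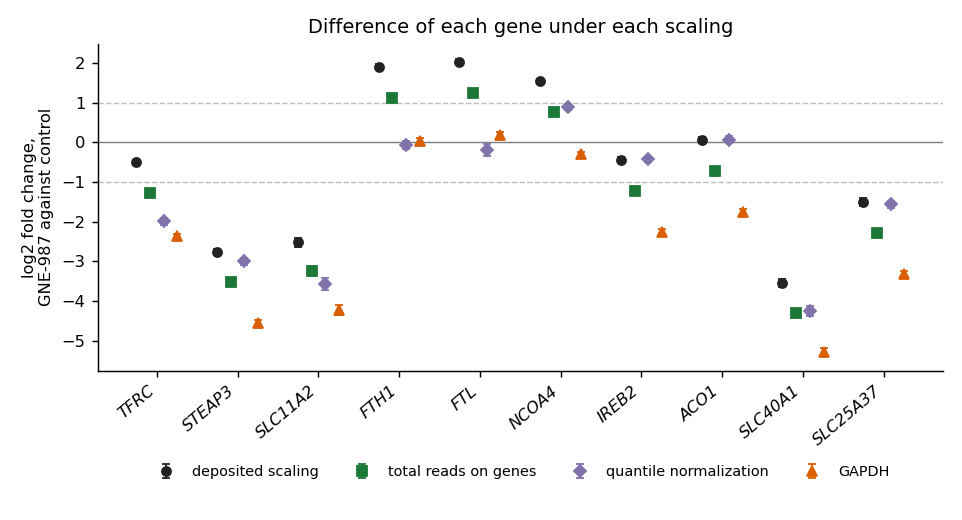
Log2 fold change (GNE-987 over control) for each of the 10 iron genes, with its standard error, as deposited and under 3 other scalings (symbols). Dashed lines mark a fold change of 2. STEAP3, SLC11A2, SLC40A1 and SLC25A37 lie below the lower line under all 4, while FTH1 and FTL lie near 0 when scaled to GAPDH and with quantile normalization.

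**Figure D3:**
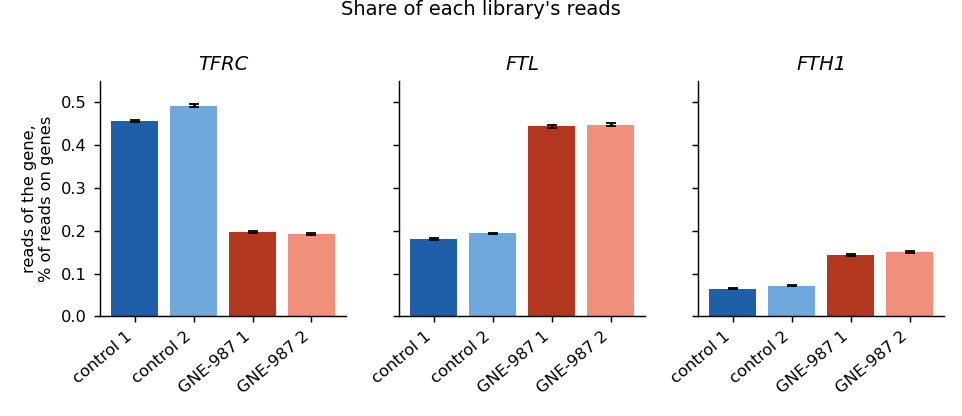
Reads of TFRC, FTL and FTH1 as a percentage of the reads on genes in each library (bars), with 95% Wilson intervals. TFRC falls from 0.457% and 0.493% to 0.197% and 0.192%, and FTL rises from 0.181% and 0.194% to 0.444% and 0.448%.

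Ratios between genes of 1 library do not depend on a factor that multiplies the whole library. Their size does depend on the gene lengths behind the deposited values, for TFRC 3.15 times its canonical messenger. The ratio of ferritin (the FPKM of FTH1 plus FTL) to TFRC was 8.21 in both control libraries and 46.2 and 48.0 after GNE-987, 5.73 times higher after treatment. With the ferritin pseudogenes added it was 8.30 and 8.29 in control and 46.7 and 48.5 with GNE-987. The ratio of FTL to FTH1 changed far less, from 6.48 and 6.26 to 7.17 and 6.89. Against the receptor, the other uptake genes and the exporter were lower in both treated libraries. STEAP3 over TFRC was 0.0612 and 0.0580 in control and 0.0115 and 0.0126 with GNE-987. SLC11A2 over TFRC was 0.0204 and 0.0196 in control and 0.00422 and 0.00478 with GNE-987. SLC40A1 over TFRC was 0.0529 and 0.0522 in control and 0.00554 and 0.00619 with GNE-987. TFRC over IREB2 overlapped between the groups, at 29.8 and 32.1 in control and 30.9 and 28.7 with GNE-987. FTH1 over GAPDH also overlapped, at 0.671 and 0.707 in control and 0.695 and 0.720 with GNE-987. With 2 libraries per group an exact permutation test, two-sided, cannot give a P value below 0.333, which is what it gave for the ferritin to TFRC ratio, so the ratios are given as values.

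**Figure D4:**
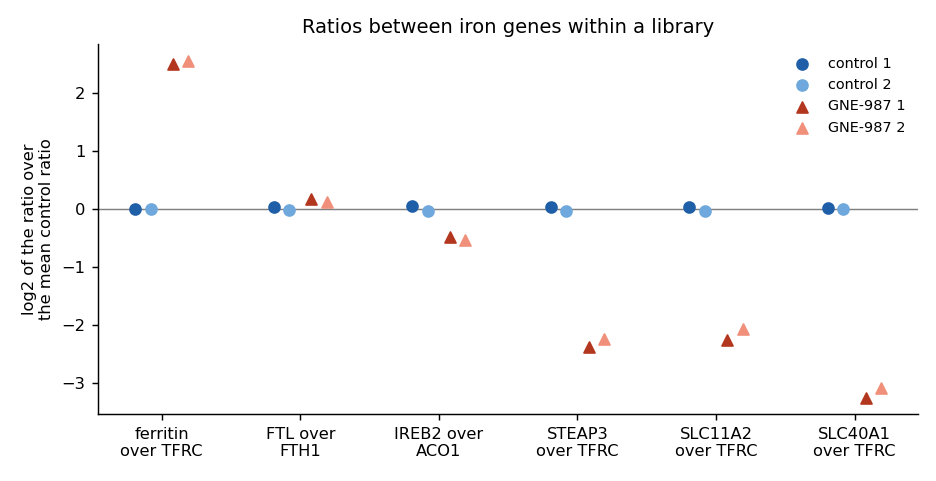
Ratios of FPKM between iron genes in each library, as log2 of the ratio over the mean control ratio. Both GNE-987 libraries (triangles) lie above 2 for ferritin over TFRC and below -2 for STEAP3, SLC11A2 and SLC40A1 over TFRC, while FTL over FTH1 and IREB2 over ACO1 stay within 1 of the control libraries (circles).

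The genes with the most similar pattern were sought among 3400 protein-coding genes whose mean was 10 FPKM or more, by the distance between centred log2 values over the 4 libraries. For TFRC they were DNMT1, the maintenance DNA methyltransferase (distance 0.0304), JPT2 (0.0363) and CCDC71L (0.0373). For FTH1 they were TLCD1 (0.0569), UBXN7 (0.0709) and ZBTB5 (0.0731). With 4 libraries in 2 groups this measure is mainly the size of the difference between the groups.

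Other genes of iron handling were taken from a list of 72, and 56 passed the filter on low values. Among the tested ones, 8 were called higher (14.3%) and 12 lower (21.4%), against 33.6% and 24.9% of all tested genes and 23.99% and 31.7% of the protein-coding ones. The median log2 fold change of the list was -0.26, close to the -0.29 of tested protein-coding genes. Of the 56 genes, 6 reached the minimum level in 1 group only, SLC46A1, BOLA2B and BOLA1 through the GNE-987 libraries and 3 through the control libraries, among them STEAP1 and HJV, so these counts are a description. With scaling to reads on genes 4 were called higher and 29 lower, with scaling to GAPDH 2 and 46, and with quantile normalization 7 and 15. Of the 8 genes called higher as deposited, HFE and BOLA1 were called higher under the 3 other scalings too. PCBP2 (1.30) and EPAS1 (1.28) were still called higher with reads on genes but not with GAPDH (0.23 for each). SKP1 (0.67), ALAS2 (0.46) and FBXL5 (0.38) were not called with reads on genes, and their log2 fold changes with GAPDH were below 0 (-0.39, -0.60 and -0.68). The 12 genes called lower as deposited were called lower under each of these scalings. Genes named below beyond the highest and the most changed of each role were named after their values were seen.

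Of 6 tested genes of surface uptake and reduction, 3 were called lower and 1 higher. SLC39A14, a transporter for iron not bound to transferrin, was at 9.51 and 11.4 FPKM in control and at 1.93 and 2.06 FPKM after GNE-987 (log2 fold change -2.33, SE 0.122). SLC39A8, its close relative, was also lower (-1.29). The reductase relative STEAP1 was called lower as well, at 0.962 and 0.946 FPKM in control and at 0.221 and 0.139 FPKM after GNE-987, the latter on 3 and 2 reads. TFR2, the second transferrin receptor of liver and red cell precursors, was at 14.3 and 14.8 FPKM in control and at 14.3 and 14.2 FPKM after GNE-987, and was not called. HFE, a partner of the transferrin receptors, was called higher, at 0.773 and 0.741 FPKM in control and at 45.7 and 43.4 FPKM after GNE-987. The histone gene H2BC4, on the opposite strand, shares 430 bases with the exons of HFE, 7.58% of their length. H2BC4 was at 42.8 and 43.2 FPKM in control and at 128 and 123 FPKM after GNE-987. Without strand-specific counting, which is not stated, reads of the shared stretch could count for either gene.

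Of 5 tested genes of storage and cytosolic iron chaperones, 1 was called higher and 0 lower. PCBP1, a poly(C)-binding protein that loads iron into ferritin, had the highest level, at 130 and 126 FPKM in control and at 161 and 166 FPKM after GNE-987, and was not called. PCBP2, its paralog, was called higher, at 25.02 and 23.0 FPKM in control and at 103 and 101 FPKM after GNE-987 (log2 fold change 2.08, SE 0.0575). BOLA2B was at 12.6 FPKM in GNE-987 replicate 1 and 0.166 FPKM in replicate 2, and its near-identical copy BOLA2 was at 0.190 and 0.301 FPKM in the same libraries, so the value of each is uncertain.

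Of 7 tested genes of sensing and regulation, 2 were called higher and 2 lower. The ubiquitin ligase that marks the IREB2 protein for degradation is built from FBXL5, SKP1 and CUL1. FBXL5, the iron-binding subunit, was at 4.41 and 5.30 FPKM in control and at 11.3 and 10.4 FPKM after GNE-987 (log2 fold change 1.15). SKP1, the adaptor, was at 10.4 and 9.18 FPKM in control and at 26.7 and 26.9 FPKM after GNE-987 (1.45). CUL1, the scaffold, was at 32.1 FPKM in each control library and at 11.1 and 10.2 FPKM after GNE-987 (-1.59). HJV, a coreceptor of hepcidin control in liver, was also lower, between 1.31 and 1.51 FPKM in control and at 0.198 and 0.422 FPKM after GNE-987, on 4 and 9 reads.

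Of 5 tested genes of export and heme iron recycling, 1 was called lower and 0 higher. SLC48A1, a heme transporter, was at 8.91 and 8.86 FPKM in control and at 2.43 and 2.92 FPKM after GNE-987 (log2 fold change -1.70, SE 0.116). HMOX2, the constitutive heme oxygenase, had the highest level and was not called, at 14.3 and 15.7 FPKM in control and 17.3 and 19.6 FPKM after GNE-987. HEPH, a ferroxidase that works with ferroportin, was between 14.5 and 16.4 FPKM in all 4 libraries.

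As deposited, most genes of iron-sulfur cluster assembly were not called. The called share was 15.8% of the mitochondrial and 33.3% of the cytosolic ones, against 58.5% of all tested genes. Of 19 tested mitochondrial genes, 16 were not called, 2 were lower (among them ISCA2, with a log2 fold change of -1.95 and 15 and 16 reads after GNE-987) and 1 was higher. TMEM14C, a transporter of heme precursors, had the highest level, at 80.4 and 82.5 FPKM in control and at 147 and 146 FPKM after GNE-987. The higher gene was BOLA1, at 0 and 0.155 FPKM in control and at 41.3 and 44.05 FPKM after GNE-987. Its neighbour H2BC21, a histone gene 1208 bases away on the opposite strand, was at 13.0 and 11.8 FPKM in control and 151 FPKM in each GNE-987 library. A nearer histone gene, H2AC20, lies 479 bases away on the same strand as BOLA1. H2AC20 was at 1.89 and 2.20 FPKM in control and at 9.81 and 12.5 FPKM after GNE-987. The histone gene H2AC21 shares 76 bases with the exons of BOLA1, 5.2% of their length. H2AC21 was at 0.221 and 0 FPKM in control and at 3.35 and 4.04 FPKM after GNE-987. Of 9 cytosolic assembly genes, 3 were lower, MMS19 (-1.37), CIAO3 (-1.92) and NUBP1 (-1.86, on 19 and 11 reads after GNE-987), and 0 higher. CIAO2B had the highest level, at 54.4 and 48.0 FPKM in control and at 39.1 and 48.0 FPKM after GNE-987. With scaling to reads on genes many more assembly genes were called lower, and only BOLA1 higher. Among those lower were CIAO1 (-1.44), CIAPIN1 (-1.76), ISCU (-1.45) and ABCB10 (-1.46).

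Of 5 other genes with a described iron-responsive element, 3 were called higher and 1 lower. EPAS1, a hypoxia-inducible factor, was at 2.72 and 2.46 FPKM in control and at 10.9 and 11.1 FPKM after GNE-987 (log2 fold change 2.04, SE 0.0842). ALAS2, the red cell enzyme that starts heme synthesis, was at 5.47 and 5.32 FPKM in control and at 13.2 and 12.5 FPKM after GNE-987 (1.24). CDC42BPA, a kinase, was at 8.29 and 9.41 FPKM in control and at 2.83 and 2.66 FPKM after GNE-987 (-1.65). As deposited, the genes with a 5′ element thus differed among themselves. FTH1, FTL, ALAS2 and EPAS1 were called higher, and SLC40A1 was called lower. The element of EPAS1 matched only with the unpaired base allowed, and the higher calls of all 4 depend on the scaling as given above.

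**Figure D5:**
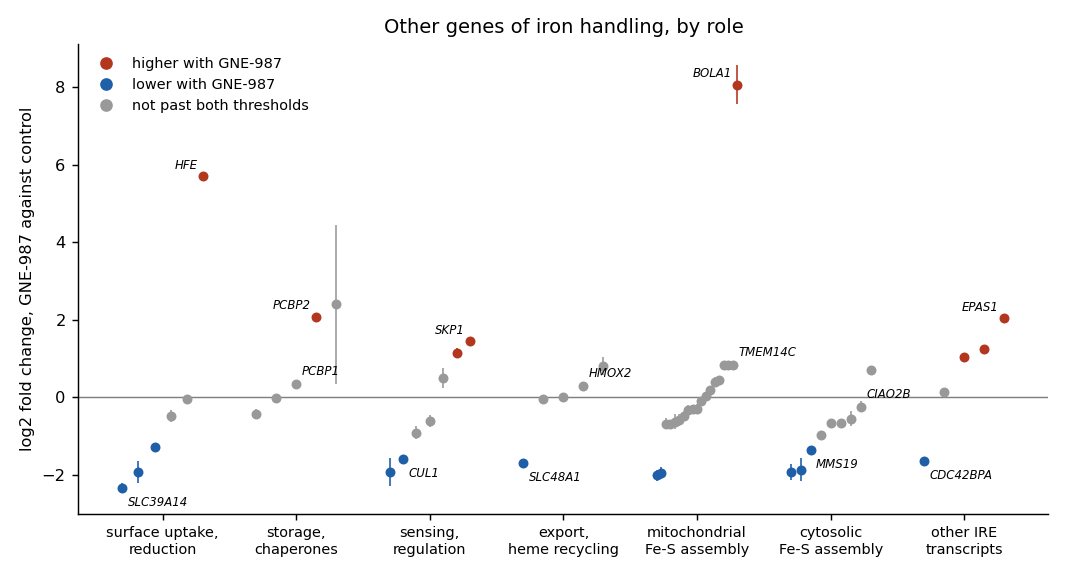
Log2 fold change (GNE-987 over control), with its standard error, for the 56 tested genes of the iron list by role, as deposited. Red points were called higher, blue points lower and gray points not called, and the genes named in the text by rule carry their symbol. The 2 largest values belong to BOLA1 and HFE, which share 5.2% and 7.58% of their exon bases with histone genes.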

How the data were processed

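RNA-seq libraries were made from total RNA of 2 control and 2 GNE-987-treated samples, grouped by their labels. The authors filtered the reads, mapped them (HISAT2 2.0.5 and hg38 per the submitters' processing notes) and deposited FPKM values. The counting program, annotation and strand setting are not given in the sources used here. The members and gene lists were chosen with earlier results of these data known.

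Genes whose mean over the 4 libraries was 0.5 FPKM or more entered limma (version 3.58.1, under R 4.3.3) on log2(FPKM + 0.1), with an intensity trend and Benjamini-Hochberg adjustment over 16668 genes. Fold changes on this scale understate the change of low genes. Read numbers were worked back from the spacing of low FPKM values. With GENCODE release 44 exon lengths, 53.0% of the detected genes gave whole reads (within 0.01) in all 4 libraries, and all but 22 of the others did so at another length, a weaker check. Depth limits SLC40A1, STEAP3 and SLC11A2, which rest on 37 to 90 reads in the GNE-987 libraries. Named genes were the 10 members, GAPDH, in each role of the iron list the gene with the highest mean and the most changed called genes averaging 5 FPKM or more, and the 3 nearest patterns to TFRC and FTH1. Alternatives were 2 other pseudocounts, 2 filters, 4 scalings, limma-voom on recovered reads, 2 other call rules, blocking on the replicate number, and omitting 1 library at a time. The code was tested on simulated data. A few genes of the list count in its totals and are not reported here by name.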

Additional observations from a re-analysis of the deposited data

How the results depend on the processing

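With the replicate number as a block, 7 of the 10 members, 20 of the 56 genes of the iron list and 9853 of all tested genes were called, against 7, 20 and 9750 without it, and no member changed its call. Same-numbered libraries did not deviate together (correlation 0.00537 across genes), and the labels do not say that a number marks a shared batch. The call of 20 genes of the iron list rose to 48 with scaling to GAPDH and to 33 with scaling to recovered reads and with limma-voom. Directions reversed for FTH1 (-0.068) and FTL (-0.20) with quantile normalization, for NCOA4 (-0.30) with GAPDH, and for ACO1 with GAPDH (-1.77), with recovered reads (-0.72) and with limma-voom (-0.72). Without 1 library at a time ACO1 ran from -0.0044, without control replicate 1, to 0.12. The pseudocounts of 1 and 0.01, the other filters, median-ratio scaling, adjusted P values and a test against a fold change of 2 changed no member's call. The cause of these changes was not tested. The limits are 2 libraries per group, a shallower treated pair, a scaling that differs from the reads on genes, and markers that go against the cell line label.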
